A study of Mus musculus with 5 samples.

Results

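The 9 genes described here encode transcription factors of the intestinal epithelium: the caudal-type homeobox factors Cdx1 and Cdx2, the nuclear receptors Hnf4a and Hnf4g, the Krüppel-like factors Klf4 and Klf5, the ETS factor Elf3 and the zinc-finger factors Gata4 and Gata6. They were chosen by name, and each was represented by its brightest probe set (the set of probes that measures one transcript region) by mean signal over the 5 arrays, among probe sets annotated to that gene alone. All 9 were on the array, out of 12393 genes named there, and together they had 18 such probe sets. Total RNA pooled from the colons of several C57BL/6 mice aged 8 weeks was mixed into total RNA pooled from several whole C57BL/6 pups aged 1 day. The mixes held 0%, 25%, 50%, 75% or 100% colon RNA, and neither pool carried a treatment or an altered gene. From each mix 10 ng was amplified in 2 rounds with T7 polymerase and hybridised to 1 Affymetrix mouse array, so no mix had a replicate. The pools differed in tissue and in age together, and the pup pool itself contained newborn gut.

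In the gut, Cdx2 specifies intestinal against gastric fate, and Cdx1 acts beside it along the crypts. Hnf4a and Hnf4g are related receptors that act together on genes of enterocyte absorption and brush border, and Hnf4a is also a central regulator in hepatocytes. Klf5 is used by dividing crypt cells and Klf4 by differentiated and goblet cells, and both, like Elf3, also act in skin and other surface epithelia. Gata4 patterns the proximal small intestine and is low in colon, Gata6 is present along the whole intestine, and both act in heart and liver.

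Most of these factors of intestinal identity had their lowest signal in whole mouse and were higher once colon RNA was added, whereas Hnf4g and Gata4 lay nearly flat. The slope of the log2 signal on colon share was fitted with limma over all 22626 probe sets, and a gene is said below to have risen or fallen when its Benjamini-Hochberg adjusted p was under 0.05. Of the 9 factors, 5 rose (Cdx1, Cdx2, Hnf4a, Klf5 and Gata6), none fell and 4 did not pass, where 24.3% of all genes passed in either direction, 9.8% as rises and 14.5% as falls. At an unadjusted limma p under 0.05, 7 of the 9 had upward slopes and 0 had downward ones. Of all 22626 probe sets, 7866 had such a p, in either direction. The median slope of the 9 was 2.28 log2, colon minus whole mouse, against −0.01 over all 12393 genes. In the undiluted RNAs, which had 1 array each and allow no test, 7 of the 9 were at least 2-fold higher in colon, against 9.26% of all genes, and none was 2-fold lower, against 10.4%. The 5 signals stood in strictly rising order in 5 of the 9, against 8.66% of all genes. Among the 18 probe sets, 9 rose and none fell, where 19.5% of all probe sets passed, 8.63% as rises and 10.9% as falls. In bulk RNA, a difference in the number of cells that express a gene and a difference in RNA per cell cannot be told apart.

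**Figure D1:**
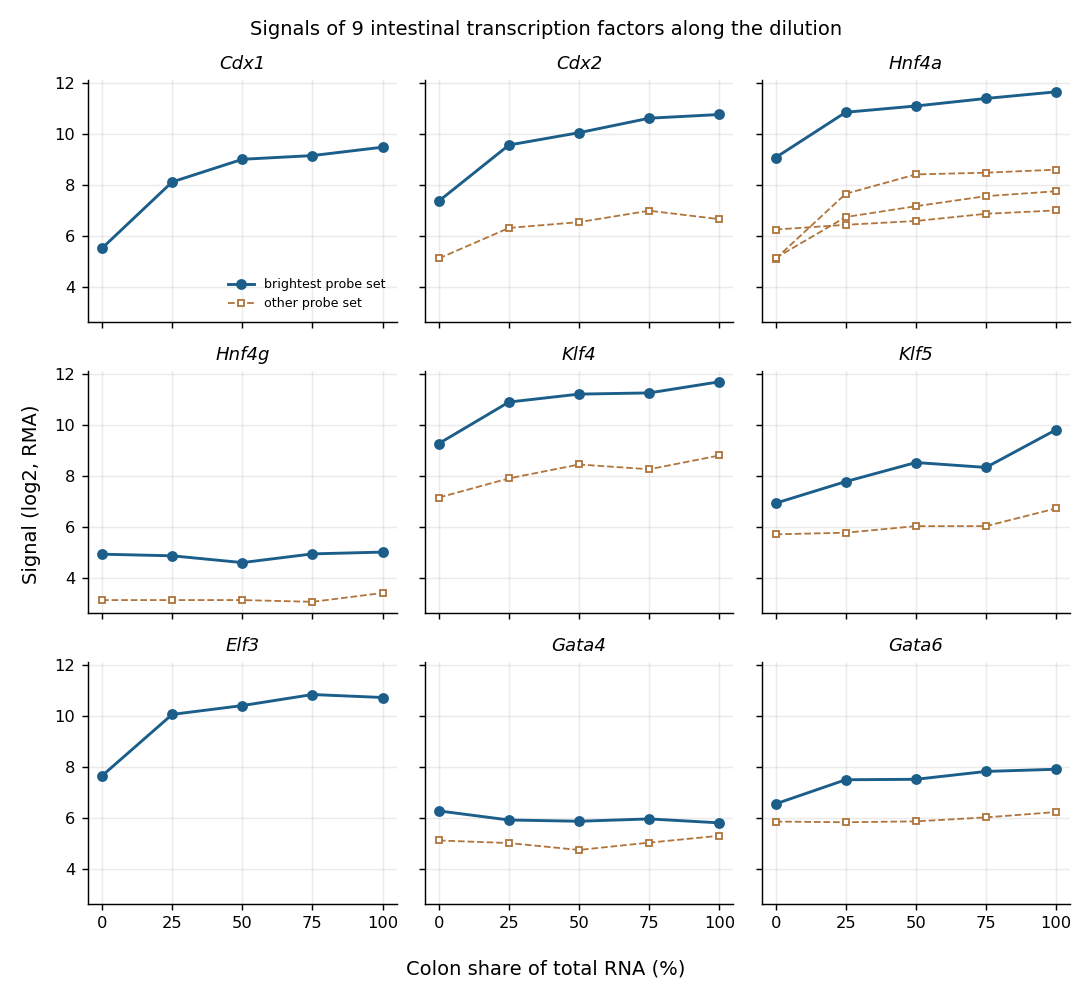
Log2 RMA signal (vertical axis) of the 9 factors against the colon share of total RNA in percent (horizontal axis), 1 array per share. Filled circles are the brightest probe set and open squares the other probe sets of the gene. Cdx1 reaches 9.49 in colon, against 5.53 in whole mouse, with its largest step by 25% colon, Klf5 has its largest step between 75% and 100%, and Hnf4g and Gata4 lie nearly flat.

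Cdx1 had the largest slope of the 9 in the log2 fit over 5 arrays. On linear intensity (1.71 against 1.53, in units of each probe set's mean) and without the whole mouse array (2.36 against 1.69 log2) the slope of Klf5 was larger than that of Cdx1. The only Cdx1 probe set (1449582_at) had log2 signals of 5.53 in whole mouse, 8.13 at 25% colon, 9.02 at 50%, 9.16 at 75% and 9.49 in colon. The signal was 15.5-fold higher in undiluted colon, and the fitted rise was 3.58 log2 (SE 0.87, limma adjusted p = 0.0497). The steps from 50% to 75% and from 75% to 100% were smaller than the residual standard deviation of 0.88. That spread includes the bend of the curve from a straight line. With 1 array per mix, it cannot show whether the 3 highest levels differ. Cdx2 had signals of 7.38, 9.57, 10.06, 10.62 and 10.77 in the same order of shares in its brightest probe set (1422075_at). It rose by 3.13 log2 (SE 0.68, limma adjusted p = 0.0374), and undiluted colon was 10.5-fold above whole mouse. Its dimmer probe set had 5.13, 6.33, 6.56, 7.0 and 6.67, highest at 75%, with a slope of 1.5 (limma adjusted p = 0.0855). Its whole mouse signal lay within the range of the 15 probe sets for bacterial control RNAs (2.91 to 5.23), so the size of that slope is inexact. The Cdx1 signal of 5.53 in whole mouse lay just above that range, so its fold difference and slope are inexact in size too. Both Cdx genes had their lowest signal in whole mouse in every probe set.

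Hnf4a was measured by 4 probe sets, of which 3 rose. The brightest (1427001_s_at) had 9.08 in whole mouse, 10.86, 11.10 and 11.40 in the mixtures with 25%, 50% and 75% colon, and 11.66 in colon. It was 5.96-fold higher in undiluted colon and rose by 2.28 log2 (SE 0.55, limma adjusted p = 0.0476). The other 3 probe sets had slopes of 2.42 (adjusted p = 0.0314), 3.12 (adjusted p = 0.0739) and 0.77 (adjusted p = 0.0114) in the same limma fit. The probe sets with slopes of 2.42 and 3.12 had whole mouse signals of 5.15 and 5.12, within the range of the bacterial controls, which leaves the size of their slopes inexact. In all 4 the signals stood in strict order of colon share, and the probe set with the smallest slope had the smallest p, its residual standard deviation being 0.04. The antisense gene Hnf4aos, a long noncoding RNA that overlaps the first part of Hnf4a on chromosome 2, lay between 6.52 and 6.85 with a slope of 0.05 (limma adjusted p = 0.896). Hnf4g, the partner of Hnf4a, had 4.95, 4.89, 4.62, 4.96 and 5.03 in its brightest probe set (1450518_at). These signals lay within the range of the bacterial controls, though above the control median of 3.47. They are therefore not taken as a measured level of Hnf4g in either RNA. Its slope was 0.10 log2 (95% interval −0.41 to 0.60, limma adjusted p = 0.796), and its other probe set stayed between 3.08 and 3.43.

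Promoter windows were at hand for 4 of the 9 factors, each of them at least 2-fold higher in undiluted colon. They are shown for the binding-site cores of the factor families described here. The bases before the transcription start of Cdx2, Elf3, Hnf4a and Klf4 (RefSeq, GRCm38.p6) were searched on both strands for 5 short cores: TTTAT for CDX factors, ACTTTG for HNF4, AGATAA for GATA, CACCC for KLF and AGGAAG for ETS. Matches are in capitals, each sequence runs 5′ to 3′ on the gene's strand, and the windows are 250 bases except that of Hnf4a, which ends before the first annotated base of the gene.
Cdx2, chr5:147307250-147307499, minus strand: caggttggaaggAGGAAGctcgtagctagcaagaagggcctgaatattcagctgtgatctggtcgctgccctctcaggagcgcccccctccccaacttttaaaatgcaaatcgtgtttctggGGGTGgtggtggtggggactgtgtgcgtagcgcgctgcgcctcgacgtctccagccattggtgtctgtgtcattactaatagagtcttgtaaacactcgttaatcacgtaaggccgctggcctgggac
Elf3, chr1:135258473-135258722, minus strand: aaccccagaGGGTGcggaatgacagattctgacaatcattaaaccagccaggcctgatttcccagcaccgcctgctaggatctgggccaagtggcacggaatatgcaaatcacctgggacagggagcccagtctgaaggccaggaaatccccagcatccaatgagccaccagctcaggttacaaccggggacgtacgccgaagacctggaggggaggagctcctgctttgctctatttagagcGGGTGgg
Hnf4a, outer start, chr2:163506607-163506810, plus strand: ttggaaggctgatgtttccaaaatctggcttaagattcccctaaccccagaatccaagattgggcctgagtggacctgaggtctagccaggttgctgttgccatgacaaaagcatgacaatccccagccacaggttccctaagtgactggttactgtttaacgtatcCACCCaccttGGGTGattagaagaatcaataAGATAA
Klf4, chr4:55532476-55532725, minus strand: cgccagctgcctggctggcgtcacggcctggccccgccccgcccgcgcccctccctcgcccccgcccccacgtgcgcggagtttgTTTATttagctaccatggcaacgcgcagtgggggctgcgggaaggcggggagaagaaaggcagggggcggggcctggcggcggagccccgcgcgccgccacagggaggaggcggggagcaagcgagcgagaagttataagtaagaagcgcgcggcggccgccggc

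The KLF core stood once in the Cdx2 window, in 2 places in the Elf3 window and in 2 places in the Hnf4a window, and 52.0% of all 32851 windows of 250 bases held it. The GATA core stood once, at the end of the Hnf4a window (9.99% of all windows), the CDX core once, in the Klf4 window (37.3%), and the ETS core once in the printed bases, in the Cdx2 window (29.5%). The whole 250-base window at the outer Hnf4a start, to which these shares apply, held 3 matches to the KLF core and 1 to the ETS core, of which 1 of each lay beyond the bases printed. The HNF4 core was in none of the 4 windows shown (12.6% of all windows). A second annotated start of Hnf4a, at chr2:163546905-163547154 and inside the gene, had 5 matches to the KLF core and none to the other 4. The cores do not overlap each other here, and a match is a run of letters, not a measured binding site.

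The brightest probe sets of Klf5 and Klf4 differed from each other in the shape of their curves. Klf5 (1451021_a_at) had 6.95 in whole mouse, 7.79 at 25% colon, 8.54 at 50%, 8.35 at 75% and 9.82 in colon. It rose by 2.52 log2 (SE 0.41, limma adjusted p = 0.0198), and undiluted colon was 7.35-fold above whole mouse. The last step, from 75% to 100% colon, was 1.48 log2 and made up 51.3% of its whole difference. Its other probe set had 5.73, 5.79, 6.05, 6.05 and 6.74 and rose by 0.92 (SE 0.22, limma adjusted p = 0.0482), with 68.5% of the difference in the last step. Klf4 (1417394_at) had 9.28, 10.91, 11.22, 11.26 and 11.70, so that its first step of 1.63 log2 was the largest and its last step made up 18.0%. The slope of Klf4 was 2.08 log2 (SE 0.51, limma adjusted p = 0.0508), just outside the threshold, whereas its dimmer probe set rose by 1.46 (SE 0.29, limma adjusted p = 0.0311). That dimmer probe set had 7.17, 7.92, 8.46, 8.27 and 8.81, lower at 75% than at 50% as in the brightest Klf5 probe set. Its first step of 0.75 log2 was its largest, and its last step made up 32.8% of the difference.

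Elf3 and the GATA factors gave 3 different results. Elf3, an epithelial ETS factor with 1 probe set (1416916_at), had 7.67 in whole mouse, 10.07, 10.42 and 10.85 in the mixtures with rising colon share, and 10.73 in colon. It was 8.37-fold higher in undiluted colon, but its slope of 2.76 log2 did not pass (SE 0.83, limma adjusted p = 0.0787). Its signal bent away from a straight line, with a residual standard deviation of 0.83 and a step of 2.40 by 25% colon. Gata6 (1425464_at) had 6.57, 7.51, 7.53, 7.84 and 7.92, a 2.56-fold difference between the undiluted RNAs. It rose by 1.22 log2 (SE 0.29, limma adjusted p = 0.0478), and its dimmer probe set had a slope of 0.37 (limma adjusted p = 0.107). Gata4 (1418863_at) had 6.29 in whole mouse, 5.94, 5.89 and 5.98 in the mixtures, and 5.82 in colon. Its slope of −0.36 log2 did not pass (95% interval −0.76 to 0.05, limma adjusted p = 0.191), and its other probe set, with 4.76 to 5.32, close to the highest signals of the bacterial controls, had a slope of 0.15. Gata4 was the only one of the 9 whose brightest probe set was lower in undiluted colon than in whole mouse.

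**Figure D2:**
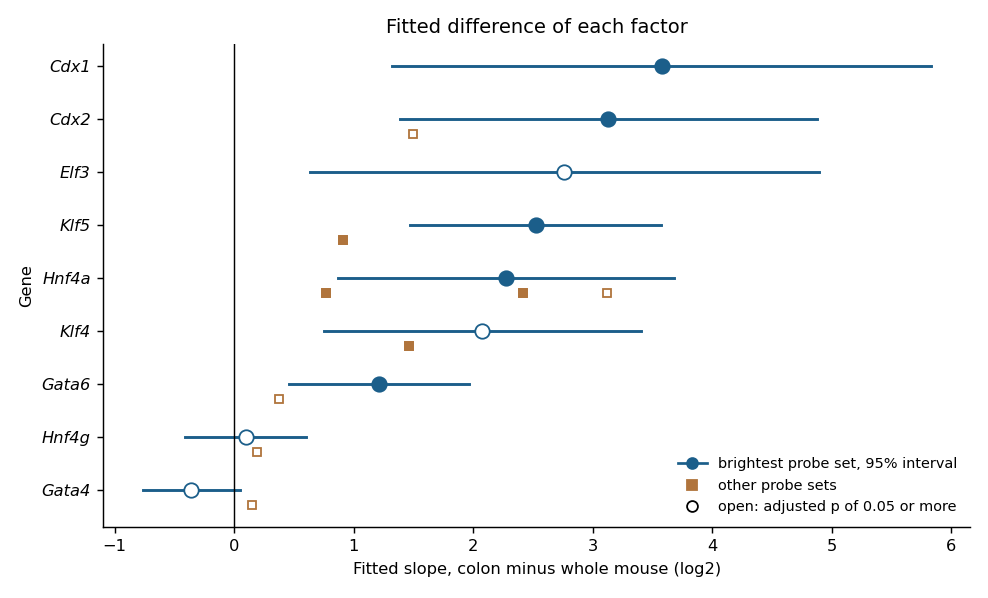
Fitted slope of the log2 signal on colon share, colon minus whole mouse (horizontal axis), for each of the 9 factors, over 5 arrays. Circles with lines are the brightest probe set with its 95% interval, squares are the other probe sets, and open symbols have an adjusted p of 0.05 or more. The slopes run from 3.58 for Cdx1 to −0.36 for Gata4, and the intervals of Hnf4g and Gata4 include 0.

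Calls changed when an array was left out. Without the whole mouse array 2 of the 9 passed (Cdx2 and Hnf4a), without the 25% mixture 3 (Cdx2, Hnf4a and Gata6), without the 75% mixture 1 (Klf5), and without the 50% mixture or the colon array none did by limma. At an unadjusted p under 0.05 there were 7 of the 9 in each of those last fits. Each of these fits had fewer residual degrees of freedom, and calls became fewer over the whole array as well. With all 5 arrays, 4409 of the 22626 probe sets passed by limma. Dropping the array with 25%, 50% or 75% colon left 2998, 1919 and 1365. Dropping undiluted whole mouse left 1492, and dropping undiluted colon left 997. Without the whole mouse array the slopes were 1.69 for Cdx1, 1.66 for Cdx2, 1.08 for Hnf4a, 2.36 for Klf5 and 0.62 for Gata6. Over the remaining shares these slopes were all upward, and that of Klf5 was the closest to its value over 5 arrays. With the arrays centred on their medians, 7 of the 9 rose, Klf4 (adjusted p = 0.0269) and Elf3 (adjusted p = 0.0462) among them by limma. That centring also turned the split over all probe sets from 1953 rises and 2456 falls into 3148 and 2325.

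The mixtures allowed each curve to be set against linear mixing. For each probe set the signal of a mixture was computed from the intensities of the undiluted RNAs weighted by their shares, and the observed log2 signal minus that value is its deviation. On the log2 scale, the step from 0% to 25% was the largest in 6 of the 7 factors at least 2-fold higher in colon. The same held for 91.6% of the 1148 genes at least 2-fold higher. Linear mixing alone makes that log2 step the largest for any gene higher in colon, so these counts say little about the factors. On the linear scale, the 25% mixture held a median of 48.0% of the difference over the 7 factors (12.6% to 59.4%). The median over the 1148 genes was 43.1%. At 25% colon, Cdx1 deviated by 0.38, Cdx2 by 0.44, Hnf4a by 0.61, Klf4 by 0.56 and Gata6 by 0.47 log2, with a median of 0.34 over the 1148 genes. Elf3 lay above linear mixing by 0.90, 0.52 and 0.48 log2 at 25%, 50% and 75% colon, outside the 95th percentile of those genes at 25% (0.81) and at 75% (0.36) and within it at 50% (0.54).

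Among the 7 factors, Klf4 lay below linear mixing at 75% colon alone, by −0.11 log2 (−0.27 in its other probe set). Klf5 was the only factor of the 7 that lay below it in every mixture. It lay below linear mixing by −0.53, −0.47 and −1.13 log2 at 25%, 50% and 75% colon, in each mixture the lowest of the 1148 genes. Read as a colon share on the linear scale, its signals corresponded to 12.6%, 31.8% and 25.8% colon, against medians of 43.1%, 62.6% and 74.6% over those genes. The second Klf5 probe set deviated by −0.27, −0.28 and −0.50. These values were singled out after they were seen, each rests on 1 array per mix, and they carry no test.

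**Figure D3:**
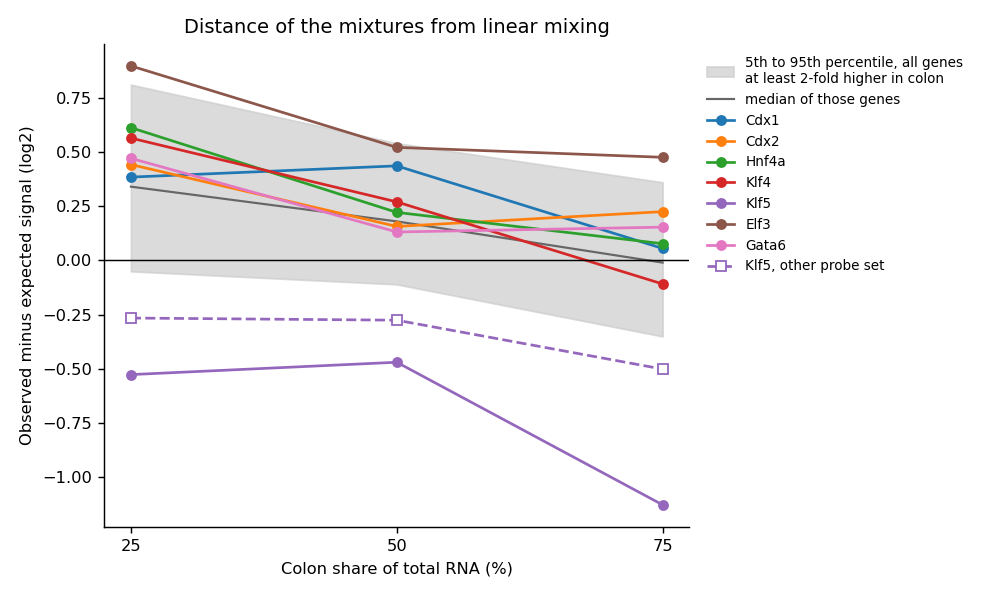
Observed minus computed log2 signal (vertical axis) in the mixtures with 25%, 50% and 75% colon (horizontal axis) for the 7 factors at least 2-fold higher in colon. The grey band spans the 5th to 95th percentile of all 1148 such genes and the grey line is their median. Klf5 lies below the band in every mixture in both of its probe sets, and Elf3 lies above it at 25% and 75%.

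Genes with the most similar profiles were found by the root mean square difference of log2 signals over the 5 arrays, each profile centred on its own mean. For Cdx1 they were the deiodinase gene Dio1 (0.08) and Hsd11b2 (0.10), which encodes the enzyme that inactivates glucocorticoids. For Cdx2 they were Misp (0.06) and Lrrc26 (0.07), for Hnf4a the adenosine kinase gene Adk (0.06) and Slc37a1 (0.06), and for Klf4 Parp12 (0.02) and the endothelin gene Edn2 (0.05). For Elf3 they were the dipeptidase gene Dpep1 (0.05) and Ppp1r14d (0.06), and for Gata6 Paqr4 (0.03) and Gpr108 (0.04). The nearly flat profiles of Hnf4g and Gata4 were closest to Zmat5 (0.02) and Vmn1r11 (0.02), and to Miip (0.02) and Orc2 (0.02). The signals of Hnf4g, and those of Vmn1r11 (2.68 to 3.09), were as low as those of the bacterial controls. Neither match of Hnf4g is therefore read as shared expression. Klf5 had no such close neighbour: its nearest genes were Galnt3 (0.31), a mucin-type glycosyltransferase gene, and Gt(ROSA)26Sor (0.31). Among the 9 factors themselves, Hnf4a and Klf4 were closest (0.11), then Cdx2 and Elf3 (0.18), while Cdx1 and Cdx2 differed by 0.26.

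Relatives of the factors within the same families had list medians near or below 0. Of 14 measured KLF relatives 1 rose, Klf6 (0.95 log2), and 1 fell, the erythroid factor Klf1 (−1.67), with a list median of 0.06, and Klf9 had 9.58 in colon and 7.55 in whole mouse (limma adjusted p = 0.0692). Of the 6 GATA relatives and cofactors none rose by limma (0 of 6 at an unadjusted p under 0.05 as well) and 3 fell. These were the blood cofactor Zfpm1 (−1.25) and, named after their values were seen, the blood factors Gata1 (−1.12) and Gata2 (−0.76), with a list median of −0.70. The cofactor Zfpm2 had 6.69 in colon and 6.78 in whole mouse (limma adjusted p = 0.824). Of 15 ETS factors 1 rose, the goblet cell factor Spdef (2.64), and 3 fell, led by Ets1 (−1.50), a factor of lymphoid and vascular cells, with a list median of 0.09. At an unadjusted limma p under 0.05 there were 4 rises and 3 falls, and 3 of the 15 were at least 2-fold higher and 2 at least 2-fold lower in undiluted colon. Ets2 had 11.22 in colon and 10.24 in whole mouse (limma adjusted p = 0.0555), and Ehf, an epithelial factor named after its values were seen, had 8.50 in colon and 4.26 in whole mouse (limma adjusted p = 0.0692). The counts past the adjusted threshold can be read against the 9.8% of all genes that rose and the 14.5% that fell. For the 2-fold counts the shares over all genes were 9.26% higher and 10.4% lower in colon. Of all 22626 probe sets, 7866 had an unadjusted limma p under 0.05, in either direction.

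Other regulators of endoderm and of the secretory lineage had positive list medians. For both lists the share over all genes at an adjusted limma p under 0.05 was 9.8% as rises and 14.5% as falls. Without adjustment, 7866 of all 22626 probe sets had a limma p under 0.05, in either direction. Of 20 measured endoderm and gut regulators 7 rose and 2 fell, with a median of 0.54 log2. The pioneer factor Foxa1 rose by 3.15 (SE 0.73, limma adjusted p = 0.0443), the hepatic and enteric factor Creb3l3 fell by 1.35, and the vitamin D receptor Vdr had 10.54 in colon and 7.19 in whole mouse (limma adjusted p = 0.0525). Of 12 secretory lineage regulators 3 rose and none fell by limma (4 and 0 at an unadjusted p under 0.05), with a median of 0.30. Creb3l4 rose by 3.05 log2 (SE 0.62, limma adjusted p = 0.0328), and Atoh1, the master regulator of secretory cells, had 10.86 in colon and 6.53 in whole mouse with an adjusted p of 0.0505 in the same fit.

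Genes bound or activated by CDX and HNF4 factors in gut epithelium went both ways. Of 26 measured, 4 rose and 6 fell, where 9.8% of all genes rose and 14.5% fell. At an unadjusted limma p under 0.05 there were 15 rises and 9 falls, where 7866 of all 22626 probe sets had such a p. In undiluted colon 14 were at least 2-fold higher and 9 at least 2-fold lower, against 9.26% and 10.4% of all genes. The median slope of the list was 1.62 log2. The chloride channel Cftr rose by 3.40 (SE 0.68, limma adjusted p = 0.0312), and trefoil factor Tff3 had 13.88 in colon and 12.58 in whole mouse (limma adjusted p = 0.121). The other rises, named after their values were seen, were those of Mep1a (2.94), Gucy2c (2.74) and Cldn2 (2.17). The largest fall was that of Fabp1 (−5.76), the fatty acid-binding protein of liver and small intestine, with 6.00 in colon and 12.39 in whole mouse (limma adjusted p = 0.0413). The other 5 that fell, named after their values were seen, were Apoc3 (−5.03), lactase Lct (−4.46), the lipoprotein assembly genes Mttp (−2.86) and Apob (−1.74), and Cubn (−1.70), a receptor of ileum and kidney. These 6 are genes of small intestine, liver or kidney, and they fell in the same arrays in which Hnf4a rose.

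**Figure D4:**
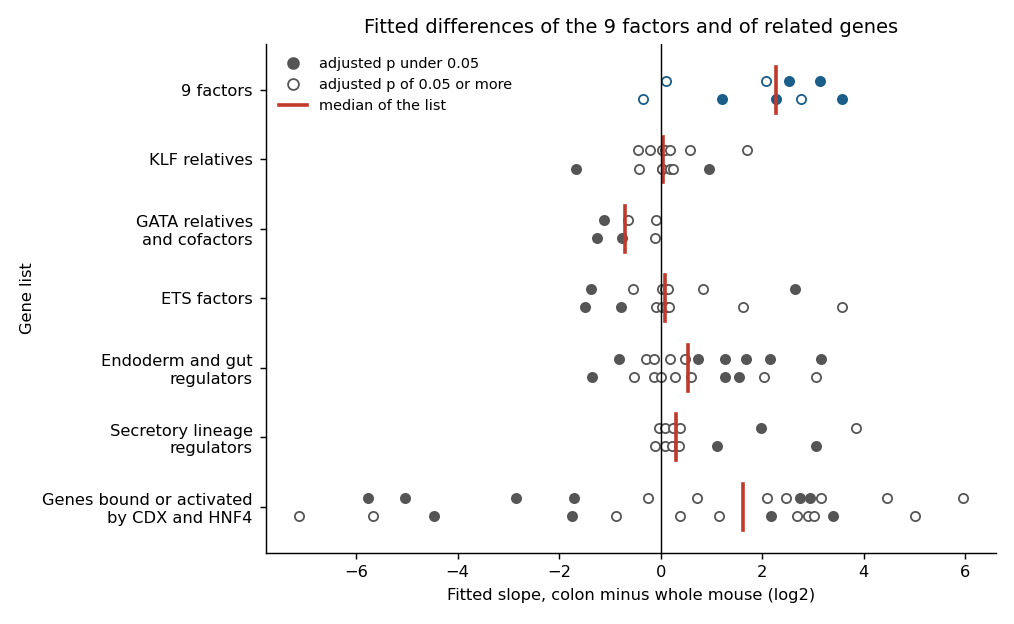
Fitted slope, colon minus whole mouse in log2 (horizontal axis), of the 9 factors (blue, top) and of the members of 6 lists of related genes. Filled points have an adjusted p under 0.05 and red bars are the list medians. The median is 2.28 for the 9 factors and between −0.70 and 1.62 for the other lists.

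Markers of the tissues that also use these factors moved with the dilution. Of all genes, 9.26% were at least 2-fold higher and 10.4% at least 2-fold lower in undiluted colon. By the limma fit 9.8% of all genes rose and 14.5% fell. An unadjusted limma p under 0.05 was reached by 7866 of all 22626 probe sets, in either direction. All 9 measured markers of colon epithelium were at least 2-fold higher in undiluted colon, with a summed linear intensity of 68630 in colon and 5698 in whole mouse. None of them passed by limma (adjusted p between 0.0501 and 0.174, with 8 at an unadjusted p under 0.05). Of 7 liver markers 6 were at least 2-fold lower in colon, and the sum was 1525 in colon and 47420 in whole mouse. All 7 heart markers were at least 2-fold lower in colon, and their sum was 555 in colon and 16340 in whole mouse. The same sum was 429 in colon and 35080 in whole mouse for 6 skin markers, and 440 in colon and 10530 in whole mouse for 5 lung markers. It was 304 in colon and 920 in whole mouse for 5 kidney markers, and 1658 in colon and 18970 in whole mouse for 6 markers of pancreas and stomach. At least 2-fold lower in colon were 5 of the 6 skin, 4 of the 5 lung and 3 of the 5 kidney markers. All 6 markers of pancreas and stomach were as well. By limma 3 of the 7 liver, 6 of the 7 heart, 2 of the 6 skin and 3 of the 5 lung markers fell. So did 4 of the 5 kidney markers and all 6 of pancreas and stomach, and no marker of these tissues rose. For small intestine and suckling gut, the sum over 5 markers was 6536 in colon and 18380 in whole mouse. Of these 5 markers 2 fell and 1 rose, Fabp6 (1.05 log2, limma adjusted p = 0.0264), and Fabp2 had 12.60 in colon and 12.14 in whole mouse. Smooth muscle, which uses Gata6 and Klf4, was higher in colon by its sum, with a value over 5 markers of 22100 in colon and 7588 in whole mouse. Of these 5, 4 were at least 2-fold higher in colon and 1 passed by limma, while Des had 11.13 in colon and 11.53 in whole mouse. No marker is at 0, since RMA gives every probe set a positive signal, and the part of these tissues in the slopes of the 9 factors was not tested.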

How the data were processed

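The 9 genes, the lists of related genes and markers, and the tests were chosen with earlier results of these data known. Values were used as deposited: log2 signals from 5 arrays, 1 per mix, computed by the authors with RMA per the submitters' processing notes, the version not given in the sources used here. RMA subtracts background, makes the arrays' intensity distributions equal and summarises probes by median polish, which gave tied values between arrays in 9158 probe sets, and array medians lay between 6.83 and 6.92. The 64 control probe sets were left out of the tests. Of the other 22626, 20380 were annotated to 1 gene, 691 to several and 1555 to none listed. Of the symbols, 20351 were matched by gene identifier to RefSeq (GRCm38.p6). The log2 signal was regressed on colon share (0 to 1) in limma 3.58.1 (R 4.3.3) with eBayes and 3 residual degrees of freedom, 2-sided, with Benjamini-Hochberg adjustment over all 22626. The 2 pools are the only RNA sources, so a p-value here measures technical spread and bend from a straight line, not variation between animals. The number of arrays limits precision. The fit was tested on simulated data with straight log2 slopes and normal noise, which do not cover curves that bend.

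Genes named from the related lists are, per list, the largest rise and the largest fall that passed and the brightest gene that did not pass. Nearest profiles are the 2 closest genes for each factor. Alternatives were median centring of the arrays, a minimum mean log2 signal of 6, eBayes with trend and robust settings, the mean of a gene's probe sets, a fit on linear intensity, and leaving out each array. No RNA was spiked to a stated level in the sources used here, so the bacterial control probe sets serve only as a description of low signal.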

Additional observations from a re-analysis of the deposited data

How the results depend on the processing

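The direction of the slope was kept for 8 of the 9 factors under every alternative, the exception being Hnf4g, with −0.092 log2 without the colon array. Klf4 also passed with arrays centred on their medians (2.16 log2), with a minimum mean log2 signal of 6 (2.08), with trend and robust eBayes (2.08), with the mean of its probe sets (1.77) and on linear intensity (1.11 in units of its mean intensity). Elf3 also passed with centring (2.85) and on linear intensity (1.22), and Cdx1 no longer passed with trend and robust eBayes (3.58, adjusted p = 0.0646 by limma). Hnf4g and Gata4 had a mean under 6 and gave no value under the filter. Leaving out each array in turn gave between 997 and 2998 probe sets past the threshold, between 0 and 3 of the 9 factors, and slopes between 1.69 and 4.71 log2 for Cdx1, 1.66 and 4.09 for Cdx2, 1.08 and 2.88 for Hnf4a, −0.09 and 0.31 for Hnf4g, 0.97 and 2.5 for Klf4, 1.98 and 2.85 for Klf5, 0.97 and 3.96 for Elf3, −0.44 and −0.10 for Gata4, and 0.62 and 1.53 for Gata6. Each such fit holds fewer arrays, and beyond that the cause was not tested. No paired analysis was possible because each mix had 1 array. Signals near those of the bacterial controls limit what can be said of Hnf4g and Gata4, and of the size of the Cdx1 difference.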
